A study of Mus musculus with 10 samples.

Results

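Gene expression was compared between 3 Affymetrix arrays titled neural stem cells derived from one-factor (Oct4) induced pluripotent stem (iPS) cells and 4 arrays titled brain neural stem cells (NSC), taken by title from the 10 arrays of a study of Oct4 reprogramming in mouse. Every gene with a probe set that the platform annotation ties to 1 symbol was included, 18193 genes in all, each read from its brightest probe set over the 10 arrays. The mice were Oct4-eGFP transgenic (OG2) and carried Rosa26 neo/lacZ, and were crossed with ICR females. The brain NSC came from their adult brain, and the labels record no virus for them. Per the labels, the derived cells started from NSC of the same mice that were infected with a pMX-based retroviral vector holding mouse Oct4 cDNA. They were subcultured with leukaemia inhibitory factor (LIF) and then differentiated to NSC by a published procedure with modifications. Both groups therefore share the Oct4-eGFP reporter and the lacZ marker, and by the labels only the derived cells of this comparison received the Oct4 vector, which was not checked on the arrays. The iPS cells from which they were made were grown on irradiated mouse embryonic fibroblasts. The comparison asks how far neural stem cells made from reprogrammed cells match the neural stem cells of the brain. The labels give no antigen sort, no age or sex of the mice, and do not say whether the replicates were separate cultures or clones, so p values measure only the spread between these samples.

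Neural stem cells of the adult brain are self-renewing cells that resemble radial glia and give rise to neurons, astrocytes and oligodendrocytes. In culture they grow with EGF and FGF and are known by Sox2, nestin, the fatty acid binding protein Fabp7 and a set of forebrain transcription factors. Pluripotent cells instead depend on Oct4, Sox2 and Nanog, grow as tight epithelial colonies, and in mouse are kept in that state by LIF. Oct4 is the product of Pou5f1, and Sox2 serves in both cell types.

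The arrays titled iPS-derived NSC, called the derived-NSC arrays here for their title only, did not carry the marker pattern of their title, and the 3 arrays titled iPS did not carry that of theirs. Whether the titles or table columns of these groups were exchanged is not settled by the sources used here, so a difference from brain NSC is one of the arrays with this title, and may not be one of NSC derived from iPS cells. Pluripotency markers rose, 8 of 8, and neural stem cell markers fell, 7 of 7 measured, against brain NSC. Levels and differences are in log2 units of the deposited values, differences run from brain NSC to the derived-NSC arrays and are given ± SE, and "rose" or "fell" means called. A gene was called where limma's Benjamini-Hochberg adjusted p over all 18193 genes was under 0.05 and the difference at least 2-fold. By this rule 11.3% of all genes rose and 14.0% fell, 25.4% together, and the 7 arrays did not overlap between the groups for 61.3% of genes. The median difference of all genes was 0.13.

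Pou5f1 stood at 13.41, 13 and 13.45 on the derived-NSC arrays and 4.50, 4.53, 4.62 and 4.56 on the brain NSC arrays. All 3 derived-NSC arrays were far above all 4 brain NSC arrays, and the difference was 8.74 ± 0.12 (adjusted p = 1.44e-15, limma). The labels do not say whether this probe set also reads the vector's Oct4 cDNA. Nanog, a pluripotency homeobox factor with no vector in this study, stood at 11.52, 11.70 and 11.49 on the derived-NSC arrays and 4.03, 4.27, 3.94 and 4.08 on the brain NSC arrays. Zfp42, the zinc finger gene known as Rex1, stood at 12.51, 12.38 and 12.43 on the derived-NSC arrays and 3.70, 3.62, 3.33 and 3.35 on the brain NSC arrays. Neither gene overlapped between the groups, with differences of 7.49 ± 0.10 and 8.94 ± 0.10. The other markers of this set gave Tdgf1 8.78, Dppa5a 8.67, Utf1 5.88, Fgf4 2.02 and Esrrb 1.67. The last 2 values are the lowest of several probe sets, which gave up to 6.19 for Fgf4 and 5.77 for Esrrb, and averaging gave 4.81 and 3.35. Averaged over the 8 markers, single derived-NSC arrays lay between 11.51 and 11.68 and brain NSC arrays between 5.05 and 5.13. The 3 arrays titled iPS, not part of this comparison, lay between 4.99 and 5.10.

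Fabp7, the radial glial fatty acid binding protein, stood at 4.41, 4.65 and 4.23 on the derived-NSC arrays and 14.49, 14.47, 14.52 and 14.31 on the brain NSC arrays. It was the largest fall of all 18193 genes, -10.02 ± 0.10 or 1037-fold (adjusted p = 2.75e-16, limma). Olig2, a transcription factor of cultured neural stem cells and of the oligodendrocyte lineage, stood at 6.60, 6.13 and 6.87 on the derived-NSC arrays and 12.16, 12.33, 12.47 and 12.91 on the brain NSC arrays. Nes, which encodes the intermediate filament nestin, stood at 7.90, 8.08 and 7.92 on the derived-NSC arrays and 10.01, 10.36, 10.05 and 10.79 on the brain NSC arrays. The groups did not overlap for any of these genes. The Nes difference was -2.33, and averaging its probe sets gave -0.99, under the 2-fold limit. The remaining differences were -7.73 for Ptprz1, a receptor phosphatase of radial glia, -4.18 for Pax6, -4.10 for Sox1 and -4.02 for the glutamate transporter gene Slc1a3. Over the 7 measured markers, derived-NSC arrays averaged 5.65 to 5.72 and brain NSC arrays 11.08 to 11.29, while the arrays titled iPS averaged 11.18 to 11.23. In bulk samples, fewer cells of a type and less RNA per cell cannot be told apart.

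**Figure D1:**
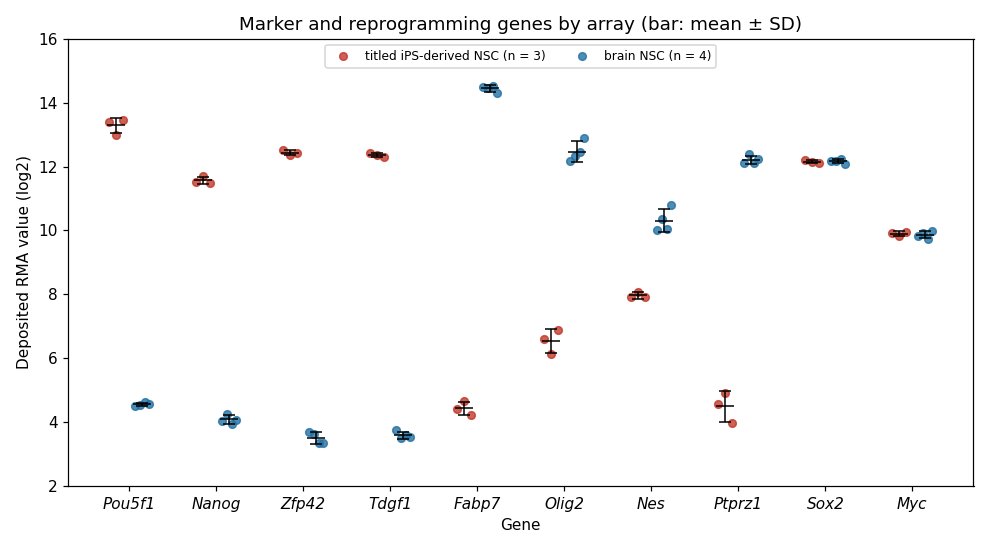
Deposited RMA values (log2, vertical axis) of 10 genes on each of the 3 derived-NSC arrays (red) and 4 brain NSC arrays (blue), with bars for mean ± SD. The pluripotency genes on the left sit high only in red, the neural stem cell genes in the middle sit higher in blue, and Sox2 and Myc on the right overlap between the groups.

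The 4 classical reprogramming factors did not move together. Sox2 stood at 12.19, 12.15 and 12.11 on the derived-NSC arrays and 12.19, 12.19, 12.24 and 12.08 on the brain NSC arrays, and Myc at 9.93, 9.82 and 9.95 on the derived-NSC arrays and 9.83, 9.93, 9.74 and 9.99 on the brain NSC arrays. For both factors the groups overlapped and the gene was not called (-0.02 ± 0.09 and 0.03 ± 0.10). Klf4 stood at 11.31, 11.26 and 11.39 on the derived-NSC arrays and 6.27, 6.42, 6.34 and 6.84 on the brain NSC arrays, with all derived-NSC arrays above all brain NSC arrays, and rose by 4.85 ± 0.13.

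Of the 18193 genes, 2064 rose and 2554 fell, 4618 in all, and 4614 of these did not overlap between the groups. At an adjusted p under 0.05 with no fold limit 11415 genes passed, and 12021 had an unadjusted p under 0.05. Among called genes the median rise was 1.62 and the median fall -1.89. At least 4-fold differences were seen in 752 genes that rose and 1161 that fell, and at least 16-fold ones in 192 and 232. At the largest sizes rises outnumbered falls: 49 rose and 39 fell at least 64-fold, and 9 rose and 5 fell at least 256-fold. Of the genes that rose, 289 had a brain NSC mean below the lower quartile of all genes (4.22 to 4.41 on single arrays), and 184 that fell had a derived-NSC mean below it. Of 1812 genes with a mean of at least 10 in both groups, 1557, or 85.9%, were not called. This filter leaves out most large differences, as both means must be high. Of the 10694 genes with a mean of at least 6 over the 10 arrays, 35.5% were called. Of the 248 genes that the naming rule gave, 180 were called. Each of the 180 had non-overlapping groups and an adjusted p of at most 0.000396 (limma). Of these, 117 had several probe sets, and averaging them moved the log2 difference of 48 by more than 1.5 times, making it smaller for 46 and larger for 2, with 0 turned in sign. Among the largest differences, averaging put Map2 at -5.53, Spon1 at -3.31, Rfx4 at -3.95 and Egfr at -2.42, and among the markers Utf1 at 3.41, Sox1 at -2.36 and Pax6 at -1.71. In the gene lists it put Zeb1 at -2.03, Celf2 at -2.16, Tgfbr2 at -1.62, Ddc at 3.21, Cbx7 at 1.33 and Ccnd3 at 1.09. Each of these has a probe set that differed by less than 2-fold.

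**Figure D2:**
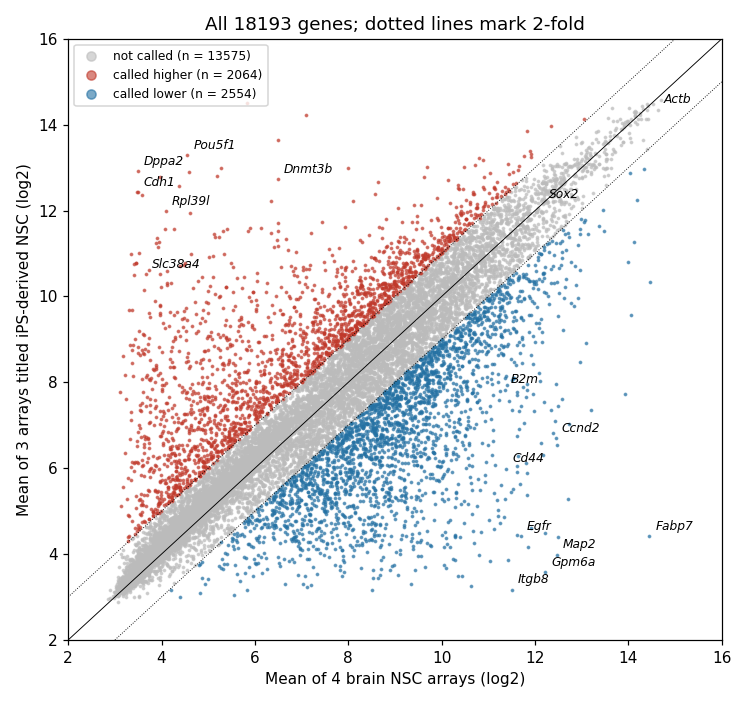
Mean of the 3 derived-NSC arrays (vertical axis) against mean of the 4 brain NSC arrays (horizontal axis), both in log2 units, with 1 point for each of 18193 genes. Red points rose (2064), blue points fell (2554), grey points were not called, and dotted lines mark a 2-fold difference. Points spread farthest from the diagonal where 1 group is near the lower limit of the scale, with Dppa2, Cdh1 and Pou5f1 on one side and Fabp7, Gpm6a and Map2 on the other.

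The 12 largest rises were Dppa2 (9.43 ± 0.09), Cdh1, Zfp42, Rps4l, Tdgf1, Pou5f1, Dppa5a, Tex19.1, L1td1, Rpl39l, Sall4 and Zfp979 (7.64 ± 0.10). Of these, Dppa2, Zfp42, Tdgf1, Pou5f1, Dppa5a and Sall4 are known as genes of pluripotent cells, and Rps4l and Rpl39l are paralogues of the ribosomal proteins Rps4x and Rpl39. The 12 largest falls were Fabp7, Gpm6a, Map2, Itgb8, Gpm6b, Ptprz1, Spon1, Nptx1, Ptn, Timp4, Rfx4 and Egfr (-7.26 ± 0.13). Gpm6a and Gpm6b encode neural membrane proteolipids, Map2 a microtubule protein of dendrites, Nptx1 a synaptic pentraxin, and Ptn the secreted factor pleiotrophin, a ligand of Ptprz1. Rfx4 is a transcription factor of the developing brain, and Timp4 inhibits metalloproteinases.

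The promoters of called genes were compared over a window of 300 bases, 250 before and 50 after the RefSeq start in GRCm38.p6, for the 14368 tested genes that matched. CpG-poor windows, with an observed over expected CpG ratio under 0.4, made up 21% of genes that rose, 13.3% of genes that fell and 33.4% of genes not called. Among genes with differences of at least 16-fold the shares were 35.1% of 131 that rose and 25% of 184 that fell. The octamer bound by POU factors was searched as ATGCAAAT on both strands. It was found in 1.46% of genes that rose, 1.73% of genes that fell and 1.45% of genes not called. The share was 1.49% of all 14368 tested genes and 1.74% of all 32851 promoters in the table. Among differences of at least 16-fold, 3.05% of the 131 that rose and 3.26% of the 184 that fell held it. Shares this small in classes of this size rest on few genes. Windows of 3 genes with an octamer are shown because they lie on both sides of the comparison: Zfp42 rose by 8.94, and Gpm6a and Sox1 fell by 8.64 and 4.10. They are from RefSeq (GRCm38.p6), chr8:43306960-43307259 on the minus strand, chr8:54779184-54779483 and chr8:12395269-12395568 on the plus strand, written 5′ to 3′ with the octamer in capitals. A match of letters is a description and no measured binding site.
Zfp42: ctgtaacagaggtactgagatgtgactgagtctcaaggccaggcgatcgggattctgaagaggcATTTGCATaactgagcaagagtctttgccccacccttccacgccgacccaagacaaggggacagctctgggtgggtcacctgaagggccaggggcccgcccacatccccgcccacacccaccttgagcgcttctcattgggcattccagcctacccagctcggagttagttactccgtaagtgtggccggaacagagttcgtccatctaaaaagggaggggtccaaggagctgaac
Gpm6a: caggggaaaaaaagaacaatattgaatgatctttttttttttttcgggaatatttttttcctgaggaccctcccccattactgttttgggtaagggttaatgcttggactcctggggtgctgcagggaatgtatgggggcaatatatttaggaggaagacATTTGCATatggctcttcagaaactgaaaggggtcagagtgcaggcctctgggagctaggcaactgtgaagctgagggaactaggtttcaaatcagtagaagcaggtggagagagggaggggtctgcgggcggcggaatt
Sox1: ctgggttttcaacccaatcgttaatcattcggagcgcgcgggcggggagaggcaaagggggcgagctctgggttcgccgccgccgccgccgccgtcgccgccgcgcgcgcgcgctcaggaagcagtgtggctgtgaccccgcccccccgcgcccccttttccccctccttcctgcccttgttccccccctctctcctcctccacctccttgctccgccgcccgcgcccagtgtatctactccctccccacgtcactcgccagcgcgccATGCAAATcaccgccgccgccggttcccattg

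The octamer begins at position -186 from the RefSeq start of Zfp42, at -90 from that of Gpm6a and at 18 from that of Sox1. The Sox1 window is rich in CpG, with 37 CpG and a ratio of 1.07, against 11 and 0.44 for Zfp42 and 4 and 0.28 for Gpm6a.

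The gene lists below are described by how many of their measured members were called and by their median difference. The counts are read against 11.3% of all genes that rose and 14.0% that fell, and the medians beside 0.13 for all genes. Genes with a mean of at least 6 were called more often: of 10694, 1401 rose and 2393 fell, 35.5% together. A list of such genes can thus exceed the shares of all genes without standing apart from other genes of that brightness. A dagger (†) marks a gene outside the naming rule, named after its values were seen.

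**Figure D3:**
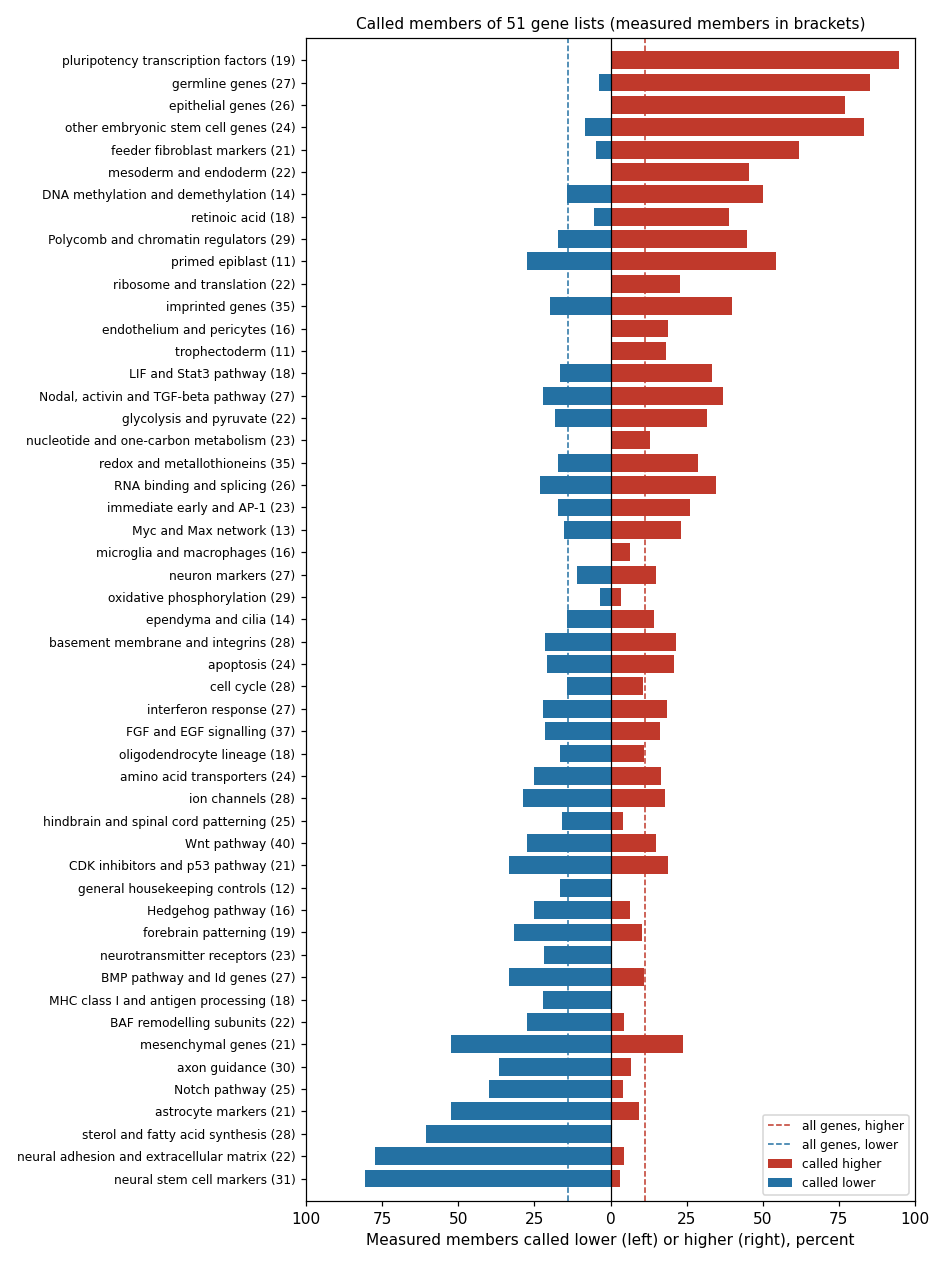
Percent of measured members called higher (red, right) or lower (blue, left) in each of 51 gene lists, with the number of measured members in brackets and dashed lines for all genes (11.3% higher, 14.0% lower). Lists of pluripotency, germline and epithelial genes extend farthest to the right, and neural stem cell, neural adhesion and sterol synthesis lists farthest to the left.

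Pluripotency transcription factors rose almost without exception. In this list 18 of 19 measured members rose and 0 fell, with a median difference of 4.30, and Sox2 was the member not called. Besides Zfp42, Pou5f1 and Nanog, the zinc finger factor Sall4 rose by 7.72 ± 0.09. It stood at 13.05, 12.95 and 13.01 on the derived-NSC arrays and 5.49, 5.18, 5.21 and 5.25 on the brain NSC arrays, with no overlap. Further members that rose were the orphan receptor Nr0b1† at 5.90 ± 0.12, the naive-state factors Tfcp2l1† at 5.30 ± 0.11, Klf5† at 5.22 ± 0.19 and Klf2† at 4.13 ± 0.12, and Prdm14† at 3.92 ± 0.10, a factor of naive and primordial germ cells. Esrrb, an orphan receptor of the naive state, rose by 1.67 ± 0.09 on its brightest probe set, from 6.54 ± 0.07 (SD, n = 4) to 8.21 ± 0.14 (n = 3). Gbx2, a homeobox gene of both the naive state and the hindbrain border, rose by 3.13 ± 0.18.

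Among other embryonic stem cell genes 20 of 24 measured members rose and 2 fell, with a median difference of 4.34. Dppa2, a chromatin protein of early embryos, stood at 12.82, 12.96 and 12.96 on the derived-NSC arrays and 3.65, 3.48, 3.43 and 3.38 on the brain NSC arrays. Tdgf1, the Nodal co-receptor Cripto, stood at 12.44, 12.36 and 12.30 on the derived-NSC arrays and 3.74, 3.50, 3.58 and 3.52 on the brain NSC arrays. No array overlapped between the groups for either gene. Lin28a, the RNA-binding protein that blocks let-7 maturation, rose by 7.47 ± 0.13, and its partner in let-7 control, the ubiquitin ligase gene Trim71 rose by 6.32 ± 0.13. Its paralogue Lin28b† was not called, with 0.19 ± 0.09. The constitutively active Ras gene Eras† rose by 7.35 ± 0.10, and Fbxo15† rose by 6.88 ± 0.09. The glucose transporter gene Slc2a3 rose by 4.99 ± 0.24, and the arginine transporter gene Slc7a3 rose by 5.35 ± 0.10. Of the members that fell, Fut9, which makes the Lewis X carbohydrate, changed by -4.78 ± 0.14, and Jam2†, a junction adhesion gene, fell by 1.06. The probe sets of Jam2† ranged from -2.90 to 1.42. Fut4, another fucosyltransferase, was not called (0.09).

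Germline genes, most of which are silent in somatic cells and carry methylated promoters there, rose in number: 23 of 27 measured members rose and 1 fell, with a median difference of 3.16. Tex19.1, a gene of germ and pluripotent cells, stood at 12.90, 12.85 and 12.95 on the derived-NSC arrays and 4.59, 4.60, 4.55 and 4.60 on the brain NSC arrays, without overlap. The piRNA pathway gene Mael rose by 5.59 ± 0.09, the Tudor gene Tdrd12 rose by 5.59 ± 0.11, and the germ cell helicase gene Ddx4† rose by 5.33 ± 0.11. The meiotic genes Sycp3† at 2.08 ± 0.18, Sycp1† at 3.16 ± 0.13, Hormad1† at 4.67 ± 0.18 and Stag3† at 3.12 ± 0.17 rose, as did Dazl† at 4.43 ± 0.13 and Piwil2† at 4.69 ± 0.12. Ifitm3, the interferon-induced membrane gene also known as a germ cell marker, rose by 4.74 ± 0.13. Tdrkh, another Tudor gene, fell by 2.54 ± 0.16, and Prdm1, the specifier of primordial germ cells, was not called (-0.81 ± 0.15).

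The fall of neural stem cell genes was broad: 1 of 31 measured members rose and 25 fell, with a median difference of -3.85. Egfr, the receptor through which EGF drives these cells in culture, stood at 4.30, 4.48 and 4.50 on the derived-NSC arrays and 11.98, 11.64, 11.70 and 11.44 on the brain NSC arrays. Gpm6a stood at 3.41, 3.56 and 3.75 on the derived-NSC arrays and 12.33, 12.02, 12.23 and 12.28 on the brain NSC arrays. Each gene was near the lower limit of the scale on all derived-NSC arrays and high on all brain NSC arrays. The nuclear factor I genes Nfix† at -6.45 ± 0.16, Nfia† at -5.56 ± 0.11 and Nfib† at -5.06 ± 0.13, which act in gliogenesis and stem cell quiescence, fell together. The orphan receptor of adult neural stem cells Nr2e1† fell by 3.72 ± 0.16, the glial factor Sox9† fell by 3.60 ± 0.16, and the SoxB1 gene Sox3 fell by 3.97 ± 0.19. The intermediate filament gene Vim† fell by 2.86 ± 0.11, and the Polycomb gene Bmi1, needed for neural stem cell self-renewal, fell by 3.85 ± 0.09. Prom1 alone rose, the CD133 surface glycoprotein, going from 4.33 ± 0.10 (SD, n = 4) to 6.48 ± 0.23 (n = 3), 2.16 ± 0.11. Gli3 (-0.89) and Cspg4 (-0.87) were not called, and Cspg4 was -1.78 and called when its probe sets were averaged.

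Forebrain patterning genes fell in part: 2 of 19 measured members rose and 6 fell, with a median difference of -0.49. Zic1, a zinc finger factor of the dorsal and ventral forebrain, stood at 4.15, 4.12 and 3.27 on the derived-NSC arrays and 11.01, 11.04, 11.03 and 11.04 on the brain NSC arrays, and fell by 7.18 ± 0.17. Lhx2, the cortical selector gene, fell by 3.92 ± 0.17, and Emx2† fell by 2.68 ± 0.12. Otx2, a factor of both the anterior neural plate and the epiblast, stood at 8.98, 8.84 and 8.75 on the derived-NSC arrays and 4.78, 5.44, 5.44 and 4.84 on the brain NSC arrays, with all derived-NSC arrays higher, and rose by 3.73 ± 0.16. The Wnt-pathway repressor Tcf7l1† rose by 1.24 ± 0.14. Otx1 was not called (-0.90).

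In the hindbrain and spinal cord list 1 of 25 measured members rose and 4 fell, with a median difference of 0.22, which was -1.01 without dim genes (mean under 6). Hoxa5 stood at 4.41, 5.04 and 5.53 on the derived-NSC arrays and 9.45, 9.51, 9.47 and 9.39 on the brain NSC arrays, without overlap, and fell by 4.46 ± 0.19. The others that fell were Hoxa4 at -2.83 ± 0.22, Irx3† at -2.53 ± 0.15 and En2† at -1.36 ± 0.13, and Gbx2 was the member that rose. Hoxa7 was not called (-0.51), like most Hox genes of the list.

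Neuron markers had no common direction, as 4 rose and 3 fell of 27 measured, at a median of 0.14. Map2 stood at 3.90, 4.15 and 3.91 on the derived-NSC arrays and 12.48, 12.46, 12.48 and 12.43 on the brain NSC arrays, and fell by 8.48. Tubb3, the neuronal beta-tubulin, stood at 9.50, 8.97 and 9.46 on the derived-NSC arrays and 4.20, 4.08, 4.12 and 4.28 on the brain NSC arrays, and rose by 5.14. Both genes separated the groups fully, in opposite directions. Stmn2, a tubulin-binding growth cone protein, rose by 4.91 ± 0.11, Nefl† rose by 2.57 ± 0.18 and Neurod1† rose by 1.67 ± 0.11. The growth-associated gene Gap43† fell by 2.94 ± 0.11, and the adhesion gene Ncam1† fell by 2.83 ± 0.11. Of the defining neuronal markers, Dcx (-0.03), Snap25 (-0.39) and Syt1 (0.08) were not called. The mean of all 5 was 6.53 to 6.68 on derived-NSC arrays and 4.60 to 4.76 on brain NSC arrays.

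Astrocyte genes fell in part: 2 rose and 11 fell of 21 measured, at a median of -1.02. Mlc1, a membrane protein of astrocyte endfeet, fell by 6.31 ± 0.28, the brain aldolase gene Aldoc fell by 5.85 ± 0.14, and Acsbg1 fell by 5.09 ± 0.13, an acyl-CoA synthetase gene. The differences of Gfap (0.23), Aqp4 (-0.09), Aldh1l1 (-0.35) and Gja1 (0.10) were not called. S100b, a calcium-binding protein, fell by 1.02 ± 0.11, and was just under 2-fold without brain NSC replicate 1 (-0.97) or 2 (-0.96). The lipid carrier gene Apoe rose by 2.73 ± 0.17, and its relative Clu† rose by 1.49 ± 0.09.

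In the oligodendrocyte lineage 2 of 18 measured members rose and 3 fell, with a median difference of 0.13. The lineage factors Olig1 at -6.19 ± 0.10, Olig2 and Sox8 at -3.27 ± 0.15 fell, and the factor Myrf† at 2.42 ± 0.16 rose. Pdgfra, the receptor of oligodendrocyte precursors and of primitive endoderm, stood at 9.70, 9.40 and 8.97 on the derived-NSC arrays and 6.67, 6.99, 6.61 and 6.39 on the brain NSC arrays, with no overlap, and rose by 2.69 ± 0.16. Myelin genes were not called, with Mbp at 0.19, Mog at 0.31, Mag at 0.37 and Cnp at -0.87.

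Neural adhesion and matrix genes fell in large numbers: 1 of 22 measured members rose and 17 fell, with a median difference of -3.25. Spon1, the floor plate protein F-spondin, fell by 7.68 ± 0.14, Gpm6b fell by 8.10 ± 0.09, and the migration gene Astn1† fell by 6.44 ± 0.13. The chondroitin sulphate proteoglycan genes Bcan† at -5.56 ± 0.11 and Vcan† at -2.48 ± 0.21 fell. The single rise was that of L1cam (1.62), an adhesion molecule of growing axons, which was 0.98 and not called once its probe sets were averaged, and Cntn2 was not called (0.42).

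Among axon guidance genes 2 of 30 measured members rose and 11 fell, with a median difference of -0.37. Semaphorin gene Sema6d fell by 5.70 ± 0.15, and the semaphorin receptor gene Plxna2 fell by 4.06 ± 0.14. Nrp1† fell by 3.67 ± 0.12, the co-receptor of class 3 semaphorins, and the netrin gene Ntn1† fell by 3.39 ± 0.14. Epha4, an ephrin receptor, rose by 2.82 ± 0.13, and the ligand gene Efnb2† rose by 1.52 ± 0.09. Sema6a was called lower at -4.49, but its probe set that was brightest over the 7 arrays gave -0.31, not called. Plxnb1 was not called (-0.02).

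Ion channel genes moved in both directions, as 5 rose and 8 fell of 28 measured, at a median of -0.08. Cacna2d1, an auxiliary calcium channel subunit, fell by 4.18 ± 0.16, and the glial potassium channel genes Kcnj10 at -3.96 ± 0.21 and Kcnj16 at -2.71 ± 0.17 fell. The potassium leak channel gene Kcnk5 rose by 2.19 ± 0.11. Cacng7 was not called (0.66). Of the neurotransmitter receptor genes, 0 of 23 measured members rose and 5 fell, with a median difference of -0.02. The 5 were the metabotropic glutamate receptor genes Grm5 at -6.81 ± 0.10 and Grm3 at -4.03 ± 0.16, the GABA receptor gene Gabrg1 at -5.81 ± 0.12, and the AMPA receptor genes Gria4† at -3.56 ± 0.13 and Gria3† at -1.44 ± 0.13. Grik5 was not called (-0.89).

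Epithelial genes rose in most of their list, and 0 fell: 20 of 26 measured members rose and 0 fell, with a median difference of 2.68. Cdh1, the E-cadherin of epithelial and pluripotent colonies, stood at 12.49, 12.36 and 12.42 on the derived-NSC arrays and 3.54, 3.28, 3.51 and 3.59 on the brain NSC arrays. The change was 492-fold, 8.94 ± 0.10 (adjusted p = 4.3e-16, limma), with brain NSC near the lower limit of the scale. The desmosomal cadherin gene Dsg2 rose by 6.20 ± 0.10, the epithelial splicing regulator gene Esrp1 rose by 4.87 ± 0.13, and the keratin genes Krt18† at 4.49 ± 0.11 and Krt8† at 3.58 ± 0.11 rose together. The claudin genes Cldn6† at 3.65 ± 0.10, Cldn4† at 3.56 ± 0.14 and Cldn7† at 2.30 ± 0.14 rose, and Cldn3 was not called (0.72).

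Mesenchymal genes were divided, as 5 rose and 11 fell of 21 measured, at a median of -1.15. Cdh2, the N-cadherin of neural cells, stood at 4.95, 5.51 and 4.92 on the derived-NSC arrays and 10.76, 10.64, 10.77 and 10.89 on the brain NSC arrays, the inverse of the Cdh1 pattern, and fell by 5.64 ± 0.13. The repressors of Cdh1 Zeb1 at -4.99 ± 0.11 and Zeb2† at -4.09 ± 0.14 fell, and Snai1† rose by 1.70 ± 0.12. The hyaluronan receptor gene Cd44 fell by 5.39 ± 0.23, the receptor gene Tgfbr2 fell by 4.21 ± 0.13, and the galectin gene Lgals1† fell by 4.11 ± 0.08. S100a6, a calcium-binding protein, rose by 4.53 ± 0.18, and the fibronectin gene Fn1† rose by 2.42 ± 0.15. Anxa2 was not called (-0.12).

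Genes listed as markers of feeder fibroblasts rose against brain NSC, and by different amounts on the 3 derived-NSC arrays. In this list 13 of 21 measured members rose and 1 fell, with a median difference of 1.52. Col1a2 stood at 9.75, 8.56 and 8.02 on the derived-NSC arrays and 5.74, 5.80, 5.87 and 5.83 on the brain NSC arrays. Col3a1 stood at 7.44, 7.14 and 5.12 on the derived-NSC arrays and 3.68, 3.41, 3.78 and 3.62 on the brain NSC arrays. Thbs1, which encodes thrombospondin, stood at 8.12, 7.63 and 6.05 on the derived-NSC arrays and 4.53, 4.31, 4.60 and 4.59 on the brain NSC arrays. Replicate 1 was the highest and replicate 3 the lowest of the derived-NSC arrays for each of these, and all 3 exceeded the brain NSC arrays. Of the 13 members that rose, 11 were highest in replicate 1 and 13 lowest in replicate 3. The median over the 21 markers, taken against the brain NSC mean of each, was 1.95 in replicate 1, 1.54 in replicate 2 and 0.96 in replicate 3, and from -0.05 to 0.03 in brain NSC. Without derived-NSC replicate 1 the median of the list was 1.09, and without replicate 3 it was 1.80, with 13 members called higher in both. The differences were 2.97 ± 0.28 for Col1a2, 2.94 ± 0.40 for Col3a1, 2.76 ± 0.34 for Thbs1, 1.71 ± 0.14 for the surface glycoprotein gene Thy1 and 1.52 ± 0.24 for Col1a1. One alternative left out suffixed probe sets, those with names ending in _a_at, _s_at or _x_at. There Col3a1 was 0.74 and Acta2 (1.60) 0.19, and averaging put Acta2 at 0.63, none of them called. Col6a1 fell by 1.48 ± 0.28, and Pdgfrb (0.47) and Sparc (0.61) were not called, Pdgfrb being 1.22 and called after averaging. Whether these transcripts came from feeder cells was not tested, nor was their part in the rises of other genes.

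**Figure D4:**
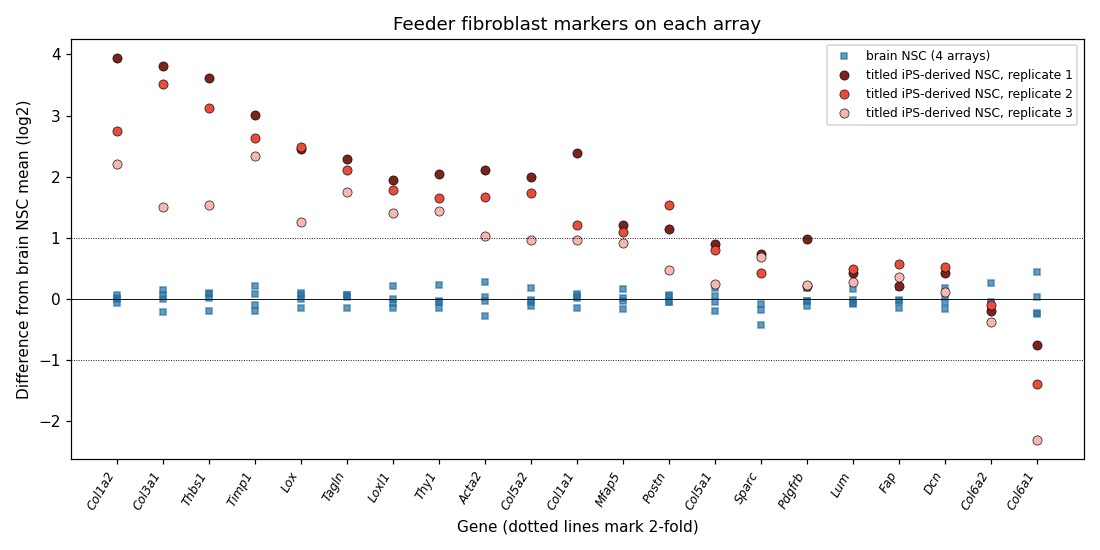
Difference of each array from the brain NSC mean (log2, vertical axis) for the 21 measured feeder fibroblast markers, ordered by the size of the group difference. Circles are the 3 derived-NSC arrays, darkest for replicate 1, squares are the 4 brain NSC arrays, and dotted lines mark 2-fold. The darkest circles lie highest for most markers that rose, and the palest circles lie lowest.

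In the basement membrane and integrin list 6 of 28 measured members rose and 6 fell, with a median difference of 0.27, and the others were not called. The 6 that rose all encode matrix proteins: the laminin gene Lama1 at 4.27 ± 0.13, Col18a1 at 3.75 ± 0.12, Col4a1† at 3.49 ± 0.14 and Col4a2† at 3.09 ± 0.20, and the nidogens Nid1† at 3.39 ± 0.19 and Nid2† at 3.13 ± 0.11. The 6 that fell are all integrins, Itgb8 at -8.33 ± 0.12, Itgav† at -3.21 ± 0.12, Itga4† at -2.76 ± 0.10, Itga1† at -2.11 ± 0.11, Itgb1† at -1.85 ± 0.12 and Itga7† at -1.23 ± 0.20. Itgb8, an activator of latent TGF-beta, stood at 3.18, 3.09 and 3.24 on the derived-NSC arrays and 11.62, 11.57, 11.57 and 11.25 on the brain NSC arrays. Itga6 was not called (-0.02). The feeder markers rose beside the matrix genes, and their part in these rises was not tested.

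Among DNA methylation and demethylation genes 7 rose and 2 fell of 14 measured, at a median of 1.04. The de novo enzyme gene Dnmt3b stood at 12.78, 12.77 and 12.66 on the derived-NSC arrays and 6.32, 6.64, 6.68 and 6.34 on the brain NSC arrays. Dnmt3l, the catalytically inactive cofactor of the de novo enzymes, stood at 12.15, 11.74 and 11.96 on the derived-NSC arrays and 4.73, 4.68, 4.47 and 4.55 on the brain NSC arrays. The groups were fully separate, and these genes rose by 6.25 ± 0.12 and 7.34 ± 0.11. Dnmt3a rose by 5.02 ± 0.10, but its 5 probe sets ranged from -2.47 to 5.28. The maintenance enzyme gene Dnmt1† (-0.07) and its partner Uhrf1 (0.24) were not called. Of the Tet demethylation enzymes, Tet1† at 2.43 ± 0.14 and Tet2† at 1.92 ± 0.15 rose and Tet3† was not called (0.44). The methyl-CpG reader genes Mbd2 at -2.14 ± 0.12 and Mbd1† at -1.39 ± 0.11 fell.

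In the Polycomb and chromatin list 13 of 29 measured members rose and 5 fell, with a median difference of 0.93. Jarid2, a cofactor of the PRC2 methyltransferase, rose by 3.16 ± 0.10, the PRC2 core gene Eed† rose by 2.53 ± 0.09, and the chromodomain gene Cbx7 rose by 3.05 ± 0.10. Bmi1 stood at 7.82, 8.08 and 8.0 on the derived-NSC arrays and 11.82, 11.76, 11.87 and 11.82 on the brain NSC arrays, and was the largest fall of the list. Rest†, the repressor of neuronal genes, rose by 2.82 ± 0.12. The PRC2 enzyme Ezh2† (-0.18) and the demethylase Kdm2b (0.39) were not called. Among subunits of the BAF remodelling complex 1 rose and 6 fell of 22 measured, at a median of -0.23. Smarcd3, -1.96 ± 0.14, and the neural subunit gene Dpf1† at -1.20 ± 0.19 fell, and Smarcd2 rose by 1.82 ± 0.16. Smarcc2†, which is traded for Smarcc1 in embryonic stem cells, fell by 1.63, and Smarcc1† was not called (0.45). Smarca2, a catalytic subunit, was called lower at -3.57, but its value was -0.13 with suffixed probe sets left out. Ss18 was not called (0.40).

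In the primed epiblast list 6 rose and 3 fell of 11 measured, at a median of 1.38. Nodal, the ligand that patterns the epiblast, stood at 10.23, 10.03 and 10.48 on the derived-NSC arrays and 5.14, 4.79, 5.21 and 5.01 on the brain NSC arrays, and rose by 5.21 ± 0.13. Fgf5†, the standard primed marker, was not called (0.52 ± 0.14), nor was Cer1 (0.38). The POU gene Pou3f1† fell by 3.21 ± 0.11. In the mesoderm and endoderm list 10 rose and 0 fell of 22 measured, at a median of 0.58. Lrp2, the endocytic receptor megalin, rose by 4.68 ± 0.10, its partner Cubn rose by 3.30 ± 0.21, and the primitive endoderm factor Gata6 rose by 3.66 ± 0.11. Lrp2 stood at 9.37, 9.17 and 9.43 on the derived-NSC arrays and 4.51, 4.67, 4.66 and 4.73 on the brain NSC arrays. Foxa1 was not called (0.17). Of the trophectoderm list 2 rose and 0 fell of 11 measured, at a median of 0.47, the risen genes being Tfap2c at 3.30 ± 0.12 and Eomes at 2.85 ± 0.12. The trophectoderm factor Cdx2† (0.47) and Esx1 (0.88) were not called.

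Imprinted genes rose and fell within the same list: 14 of 35 measured members rose and 7 fell, with a median difference of 0.50. Slc38a4, an amino acid transporter, stood at 10.66, 10.58 and 10.30 on the derived-NSC arrays and 3.66, 3.60, 3.81 and 3.57 on the brain NSC arrays. Ddc, the aromatic amino acid decarboxylase, stood at 10.11, 10.15 and 10.39 on the derived-NSC arrays and 3.82, 4.22, 4.06 and 3.85 on the brain NSC arrays. Both separated the groups fully. Phlda2, a growth-restraining gene of placenta, rose by 4.57 ± 0.09, and the non-coding RNAs Meg3† at 4.50 ± 0.13 and Rian† at 3.31 ± 0.16 of the Dlk1 to Meg3 cluster rose with Dlk1† at 1.56 ± 0.14 itself. Nnat, the brain proteolipid neuronatin, fell by 2.66 ± 0.25, and Mest† fell by 2.15 ± 0.11. Peg3† fell by 1.51 ± 0.08, and Igf2† (0.77), Igf2r† (-0.09) and Ube3a (-0.43) were not called.

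In the Nodal, activin and TGF-beta list 10 of 27 measured members rose and 6 fell, with a median difference of 0.16. The inhibitors and targets of Nodal Lefty2 at 4.49 ± 0.16 and Lefty1† at 2.09 ± 0.11 rose with Nodal, Tdgf1, the ligand Gdf3† at 4.42 ± 0.11 and the nuclear effector Foxh1† at 1.24 ± 0.10. Tgfbr2, the TGF-beta receptor, stood at 5.77, 5.45 and 5.09 on the derived-NSC arrays and 9.64, 9.59, 9.56 and 9.77 on the brain NSC arrays, and fell by 4.21. The signal transducer Smad4 was not called (-0.36).

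In the BMP and Id list 3 of 27 measured members rose and 9 fell, with a median difference of 0.18, which was -1.47 without dim genes (mean under 6). The receptor genes Bmpr2 at -3.09 ± 0.11, Acvr1† at -2.03 ± 0.10, Bmpr1b† at -1.98 ± 0.14 and Bmpr1a† at -1.33 ± 0.08 fell, as did the transducers Smad5 at -3.83 ± 0.12 and Smad1† at -1.47 ± 0.13. Bmp4, a ligand that with LIF sustains mouse pluripotent cells, rose by 3.02 ± 0.12, and the inhibitor gene Smad7† rose by 2.83 ± 0.10. The Id genes, targets of BMP, differed among themselves, with Id2† at -2.69 ± 0.10 and Id3† at -2.08 ± 0.09 lower and Id1 (0.80) and Id4† (0.49) not called.

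LIF pathway genes moved in both directions: 6 of 18 measured members rose and 3 fell, with a median difference of 0.46. Socs3, the feedback inhibitor, stood at 11.25, 11.35 and 11.42 on the derived-NSC arrays and 6.88, 6.57, 6.69 and 6.55 on the brain NSC arrays, and rose by 4.67 ± 0.11. Bcl3 rose by 3.57 ± 0.15, and the kinase genes Pim1† at 3.08 ± 0.17 and Pim3† at 2.56 ± 0.17 rose. Jak2 fell by 3.75 ± 0.12, and Stat3† fell by 1.08 ± 0.18. The receptor chains Lifr† (-0.59) and Il6st† (-0.70) and the phosphatase Ptpn11 (-0.79) were not called.

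FGF and EGF signalling genes moved in both directions: 6 rose and 8 fell of 37 measured, at a median of 0.13. Fgf4, the FGF of pluripotent cells, stood at 8.37, 8.10 and 8.16 on the derived-NSC arrays and 6.14, 5.97, 6.34 and 6.30 on the brain NSC arrays, and rose by 2.02 ± 0.11 on this probe set, the lowest of its 4. The receptor gene Erbb3 rose by 3.69 ± 0.10, and the FGF-binding protein gene Fgfbp1 rose by 2.62 ± 0.17. The receptor genes Fgfr3† at -1.57 ± 0.13 and Fgfr1† at -1.07 ± 0.16 and the feedback inhibitors Spry1† at -2.36 ± 0.18, Spred1† at -1.91 ± 0.14 and Dusp6† at -1.77 ± 0.09 fell. Etv5 was not called (-0.61).

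Wnt genes were divided, as 6 rose and 11 fell of 40 measured, at a median of 0.16. The non-canonical ligand gene Wnt5a stood at 3.58, 3.96 and 3.45 on the derived-NSC arrays and 10.23, 10.16, 10.08 and 9.93 on the brain NSC arrays, and fell by 6.44 ± 0.12. The Frizzled receptor genes divided, with Fzd3 at -5.93 ± 0.15, Fzd9 at -4.0 ± 0.19, Fzd1† at -3.0 ± 0.12 and Fzd2† at -1.82 ± 0.17 lower and Fzd7† at 2.39 ± 0.11 and Fzd5† at 2.17 ± 0.11 higher. The secreted antagonists Dkk1 at 3.81 ± 0.12 and Sfrp2† at 2.46 ± 0.13 rose. Ctnnb1, which encodes beta-catenin, was not called (-0.15).

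Notch genes that changed fell, except the nuclear effector, which rose: 1 of 25 measured members rose and 10 fell, with a median difference of -0.55. Hes5, a Notch target that maintains neural progenitors, stood at 5.30, 5.38 and 5.37 on the derived-NSC arrays and 9.82, 9.53, 9.61 and 8.81 on the brain NSC arrays, and fell by 4.09 ± 0.19. The receptor gene Notch1† fell by 3.22 ± 0.14, the ligand genes Dll1† at -2.19 ± 0.11 and Jag1† at -2.09 ± 0.21 fell, and the Fringe gene Lfng fell by 4.17 ± 0.29. Dtx4 fell by 4.06 ± 0.14. The single rise was that of Rbpj, the DNA-binding effector, at 2.10 ± 0.08, and Notch2 was not called (-0.55).

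In the Hedgehog pathway 1 of 16 measured members rose and 4 fell, with a median difference of 0.03, or -0.50 without dim genes. The co-receptor genes Gas1 at -5.71 ± 0.10 and Cdon at -2.13 ± 0.08, the receptor gene Ptch1† at -2.02 ± 0.09 and the transducer gene Smo† at -1.98 ± 0.21 fell. Gli2, a transcription factor of the pathway, rose by 2.57 ± 0.10, while Gli1† (0.41), Gli3 (-0.89) and Sufu (-0.11) were not called. Retinoic acid genes that changed mostly rose, as 7 rose and 1 fell of 18 measured, at a median of 0.80. Stra8, the retinoic acid target of entry into meiosis, stood at 11.47, 11.58 and 11.75 on the derived-NSC arrays and 6.09, 5.65, 5.88 and 5.97 on the brain NSC arrays, and rose by 5.70 ± 0.11. The receptor gene Rarg rose by 3.66 ± 0.13, and the binding protein genes Crabp2 at 2.70 ± 0.13 and Crabp1† at 2.60 ± 0.10 rose. Aldh1a1, a retinaldehyde dehydrogenase, fell by 2.24 ± 0.14, and Rxrb was not called (0.81).

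Cell cycle genes were mostly not called, as 3 rose and 4 fell of 28 measured, at a median of -0.04. D-type cyclins differed in direction. Ccnd2 stood at 7.10, 6.84 and 6.15 on the derived-NSC arrays and 12.26, 12.40, 12.35 and 12.76 on the brain NSC arrays, and fell by 5.75. Ccnd3 rose by 2.52 ± 0.22, Ccnd1 fell by 2.43 ± 0.09, and Ccne1† rose by 2.32 ± 0.10. The proliferation genes Pcna (-0.22), Mki67† (-0.94) and Top2a† (-0.48) were not called. Among CDK inhibitors, pocket proteins and p53 targets 4 rose and 7 fell of 21 measured, at a median of -0.29. The inhibitors Cdkn2c at -5.03 ± 0.13 and Cdkn1b at -3.39 ± 0.20 fell, and Cdkn1c rose by 1.65 ± 0.13. The retinoblastoma family genes Rb1 at -3.02 ± 0.11, Rbl2† at -2.63 ± 0.18 and Rbl1† at -1.91 ± 0.10 fell together. The 2 probe sets of Rb1 gave -3.02 and 0.25, and averaging them put it at -1.39. Ccng1 was not called (-0.29), but was 1.61 and called higher with suffixed probe sets left out.

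In the apoptosis list 5 rose and 5 fell of 24 measured, at a median of 0.14. The pro-survival gene Bcl2 stood at 5.29, 5.27 and 5.50 on the derived-NSC arrays and 9.39, 9.28, 9.21 and 8.61 on the brain NSC arrays, and fell by 3.77 ± 0.16. Pmaip1, the p53 target Noxa that binds Mcl1, rose by 5.91 ± 0.11, and Mcl1 rose by 2.29 ± 0.09. The p53 target Bbc3† rose by 2.23 ± 0.18, and Birc5 was not called (0.35). In the Myc and Max network 3 rose and 2 fell of 13 measured, at a median of 0.31. The antagonists Mxd4 at -1.58 ± 0.13 and Mxd3 at -1.51 ± 0.15 and the repressor gene Mga, 1.5 ± 0.10, were called, and after averaging of probe sets none of these 3 was (-0.70, -0.91 and 0.86). Mxd3 was also not called on the probe set brightest over the 7 arrays (-0.34). The other 2 that rose were Mlxip† at 1.15 ± 0.12 and Mycl† at 1.04 ± 0.11. Immediate early genes did not move as 1 set, as 6 rose and 4 fell of 23 measured, at a median of 0.41. Jun fell by 4.05 ± 0.16, Ier5 fell by 3.82 ± 0.20, and Ier2 rose by 2.75 ± 0.12. Fos† (0.45) and Egr1 (0.41) were not called.

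Sterol and fatty acid synthesis genes fell in most of their list, and 0 rose: 0 of 28 measured members rose and 17 fell, with a median difference of -1.38. Scd1, the stearoyl-CoA desaturase, stood at 8.86, 8.69 and 8.38 on the derived-NSC arrays and 11.84, 11.91, 11.78 and 12.13 on the brain NSC arrays, and fell by 3.27 ± 0.12. The fatty acid desaturase genes Fads2 at -3.19 ± 0.18 and Fads1 at -2.71 ± 0.13 fell. Of the cholesterol pathway, Cyp51† at -2.03 ± 0.11, Idi1† at -1.67 ± 0.08, Sqle† at -1.43 ± 0.10 and Hmgcs1† at -1.32 ± 0.08 fell with the regulator Srebf2† at -1.5 ± 0.22. The fatty acid synthesis genes Acly (-0.50), Fasn† (-0.12) and Acaca† (-0.22) were not called.

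Glycolysis genes moved in both directions, as 7 rose and 4 fell of 22 measured, at a median of 0.34. The brain aldolase Aldoc fell by 5.85, and the muscle enolase gene Eno3 rose by 3.65 ± 0.16. The glucose transporter genes Slc2a3 at 4.99 ± 0.24 and Slc2a1† at 1.70 ± 0.15, the hexokinase gene Hk2† at 2.23 ± 0.14 and the lactate exporter gene Slc16a3† at 2.33 ± 0.20 rose, and Hk1† fell by 1.43 ± 0.22. Pgk1 was not called (-0.63). Respiratory chain genes were nearly all not called, as 1 rose and 1 fell of 29 measured, at a median of -0.20. The called members were Cox7a1, the muscle isoform of a cytochrome oxidase subunit, at 8.39, 8.70 and 8.56 on the derived-NSC arrays and 4.11, 4.34, 4.17 and 4.08 on the brain NSC arrays, and the succinate dehydrogenase gene Sdhb. Cox7a1 rose by 4.38 ± 0.11, Sdhb fell by 1.06 ± 0.11, and Uqcrb was not called (0.11).

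In nucleotide and one-carbon metabolism 3 rose and 0 fell of 23 measured, at a median of 0.44. The 3 were the purine synthesis genes Ppat at 1.56 ± 0.09 and Gart at 1.27 ± 0.17 and the serine hydroxymethyltransferase gene Shmt1 at 1.37 ± 0.10, and Rrm2 was not called (-0.32). Amino acid transporters moved in both directions, as 4 rose and 6 fell of 24 measured, at a median of 0.14. After Slc38a4 and Slc7a3, Slc7a7 rose by 4.51 ± 0.12, and the glutamate transporters Slc1a3 (-4.02) and Slc1a2† at -3.37 ± 0.21 and the glycine transporter Slc6a9† at -2.87 ± 0.20 fell. Slc38a2 was not called (-0.20).

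Of the redox genes, 10 of 35 measured members rose and 6 fell, with a median difference of -0.13. The glutathione transferase genes Gstm1 at -3.85 ± 0.11 and Gstm5† at -3.43 ± 0.09 fell, Gsta3† at 3.32 ± 0.11 and Gsta4† at 3.31 ± 0.13 rose, and the glutathione peroxidase genes moved both ways, with Gpx8 at -3.45 ± 0.17 and Gpx3 at 3.43 ± 0.13. Mgst1, a membrane-bound transferase, was called lower at -5.95 ± 0.13, from a suffixed probe set (_a_at). Its other probe set gave 0.15 with means of 3.94 and 3.79, both near the lower limit of the scale. Txn1 was not called (-0.97), though it was -1.0 and called when each array was centred on its median.

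Most genes of MHC class I and antigen processing were not called: 0 of 18 measured members rose and 4 fell, with a median difference of -0.06. B2m, the light chain of class I molecules, stood at 7.83, 8.02 and 7.64 on the derived-NSC arrays and 11.28, 11.52, 11.30 and 11.33 on the brain NSC arrays. It fell by 3.52 ± 0.11, the heavy chain gene H2-K1† fell by 2.47 ± 0.11, the lipid-presenting gene Cd1d1 fell by 2.52 ± 0.11, and the peptide-trimming gene Erap1 fell by 2.57 ± 0.12. Tap1† (-0.08), Tap2† (-0.27) and Calr (0.31) were not called. Of the interferon genes, 5 of 27 measured members rose and 6 fell, with a median difference of 0.10. The membrane genes Ifitm3, Ifitm1 at 3.94 ± 0.16 and Ifitm2† at 2.97 ± 0.10 rose with the RNA sensor Ddx58† at 3.91 ± 0.08 and Bst2† at 3.77 ± 0.11, and Ifit2 fell by 4.12 ± 0.10. Irf1 was not called (0.30).

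Markers of other cell types of the brain were not called in most cases. In the microglia and macrophage list 1 rose and 0 fell of 16 measured, at a median of 0.32, the lysosomal gene Cd68 (1.37 ± 0.18). The defining markers Aif1 (0.09), Itgam (0.45), Csf1r (0.51), Cx3cr1 (0.19) and Ptprc (0.09) were not called, and their mean was 4.79 to 4.86 on derived-NSC and 4.53 to 4.64 on brain NSC arrays. Among endothelial and pericyte genes 3 rose and 0 fell of 16 measured, at a median of 0.41. Pecam1, also a surface protein of mouse pluripotent cells, rose by 3.50 ± 0.16, Esam rose by 1.83 ± 0.11, and Eng rose by 1.33 ± 0.11. Cdh5 (0.36), Tek (0.65) and Tie1 (-0.03) were not called. In the ependyma and cilia list 2 rose and 2 fell of 14 measured, at a median of 0.13. The ciliary factor Rfx3 fell by 4.11 ± 0.10, the adenylate kinase gene Ak7 rose by 4.11 ± 0.11, and Rfx2† rose by 1.59 ± 0.18. Ccdc39 was called lower at -1.72, but was -0.77 after averaging and -0.47 with suffixed probe sets left out, and Ift172 was not called (-0.03).

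RNA-binding genes moved in both directions: 9 of 26 measured members rose and 6 fell, with a median difference of 0.18. The neural splicing genes Nova1† at -4.80 ± 0.14 and Celf2 at -4.86 ± 0.10 and the muscleblind genes Mbnl2† at -3.63 ± 0.18 and Mbnl1† at -3.43 ± 0.09 fell. Rbpms rose by 6.23 ± 0.17, Igf2bp1† rose by 2.23 ± 0.12, and the germ cell gene Dnd1† rose by 2.10 ± 0.11. The Musashi gene Msi2† fell by 1.02 ± 0.08, while Msi1† (-0.94) and Celf1 (-0.06) were not called. Of the ribosome and translation genes, 5 of 22 measured members rose and 0 fell, with a median difference of 0.26. Rpl39l stood at 12.04, 11.82 and 12.14 on the derived-NSC arrays and 4.05, 4.11, 4.11 and 4.07 on the brain NSC arrays, and its paralogue Rpl39† was not called (0.03). Rps4l is in none of the 51 lists. It stood at 12.82, 12.80 and 12.74 on the derived-NSC arrays and 3.93, 3.93, 3.67 and 4.37 on the brain NSC arrays. Its paralogue Rps4x† was not called (-0.03). Such near-identical copies may share probe hybridisation. The translation repressor Eif4ebp1 rose by 2.43 ± 0.11, and the nucleolar genes Nolc1† at 1.40 ± 0.12 and Nop58† at 1.37 ± 0.14 rose. Eif4ebp2 was called higher at 1.51, but was 0.05 and not called after averaging, and Eef1a1 was not called (-0.12). Of the general control genes 0 rose and 2 fell of 12 measured, at a median of 0.02, those that fell being B2m and Gusb at -1.53 ± 0.12. Actb was not called (-0.27), and the median of these controls was -0.01 when each array was centred on its median.

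Called genes were unevenly spread over the chromosomes, described here without a test. Chromosome 7 had 17.3% of 1413 genes higher and 7.64% lower, and chromosome 8 had 18.5% of 932 higher and 10.9% lower. Chromosome 14 had 8.42% of 641 higher and 21.4% lower, and the X chromosome had 12% of 617 higher and 22.2% lower. Among genes with a mean of at least 6, the median difference was -0.60 on chromosome 14, -0.47 on the X chromosome, 0.32 on chromosome 7 and 0.31 on chromosome 8. Xist†, the long non-coding RNA of X inactivation, stood at 9.81, 10.57 and 10.28 on the derived-NSC arrays and 5.36, 5.42, 5.56 and 5.21 on the brain NSC arrays. It rose by 4.83 on this probe set, and its other 2 gave 0.27 and 0.28. Those 2 read near the lower limit of the scale, with means of 3.57 and 3.75 on derived-NSC and 3.31 and 3.47 on brain NSC arrays. Tsix†, the antisense partner of Xist†, rose by 3.13, and the probe sets of Tsix† and Xist† may read overlapping transcripts. Of Y-linked genes, Kdm5d† fell by 1.86, and Uty† (0.23) and Eif2s3y† (0.07) were not called.

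**Figure D5:**
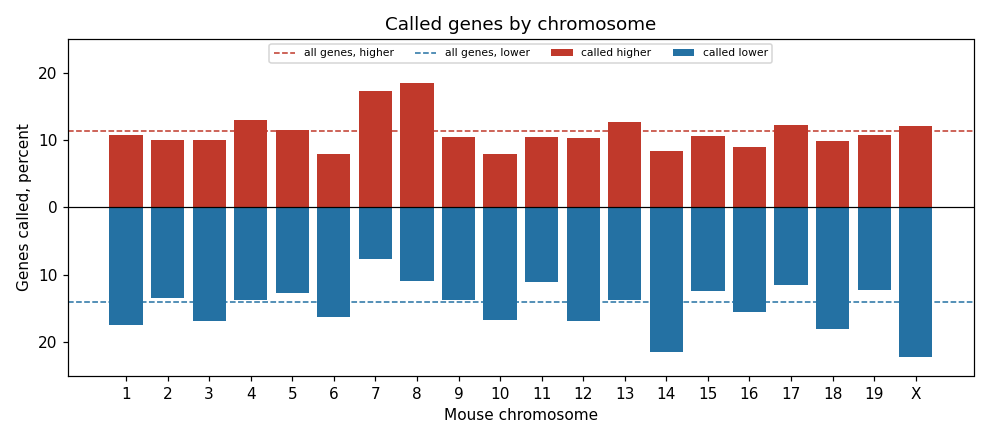
Percent of genes called higher (red, upward) and lower (blue, downward) on each mouse chromosome (horizontal axis), with dashed lines for all genes. Chromosomes 7 and 8 have the tallest red bars (17.3% and 18.5%), and chromosome 14 and X the longest blue bars (21.4% and 22.2%).

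Pearson correlations over all genes were 0.994 to 0.996 among derived-NSC arrays, 0.990 to 0.998 among brain NSC arrays and 0.854 to 0.864 between the groups, a description over genes, which are not independent. The arrays titled iPS correlated with brain NSC arrays at 0.983 to 0.992 and with derived-NSC arrays at 0.860 to 0.862. The difference of 3′ over 5′ control probe sets, a sign of RNA length, was 0.51 ± 0.08 against 0.32 ± 0.12 for Actb and -0.04 ± 0.07 against -0.20 ± 0.06 for Gapdh (SD, n = 3 and 4; exact two-sided permutation p = 0.0857 for each, 0.1143 adjusted over 4 measures). Of 35 splits the smallest p possible is 0.0286. Hybridisation controls averaged 10.87 ± 0.27 and 10.60 ± 0.37 (exact permutation p = 0.3429). The median of all probe sets was 5.71 ± 0.01 and 5.68 ± 0.01 (exact permutation p = 0.0286, adjusted 0.1143). The part of these measures in the gene differences was not tested. Of 2809 called genes with several probe sets, 2093, or 74.5%, had the same sign in all of them, and 46 genes had probe sets past 2-fold in both directions.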

How the data were processed

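Mouse RNA was hybridised to 10 Affymetrix arrays, of which 7 enter this comparison. The authors deposited log2 values per probe set, made with RMA per the submitters' processing notes and in Bioconductor per the labels, and no version is given in the sources used here. The method is meant to make the arrays' distributions alike, so a shift shared by most genes would largely be removed, and differences of dim genes are compressed. The deposited distributions were still not equal. The upper quartile over all probe sets was 7.80 to 7.84 on derived-NSC arrays and 8.03 to 8.12 on brain NSC arrays. Scanner files and scan dates were not used here, and the number of arrays limits the precision.

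Of 45101 probe sets (64 controls), 34945 had 1 symbol in the platform annotation, 932 several and 9160 none there. Each of 18193 genes was read from its brightest probe set over the 10 arrays. Chromosomes and promoters came from RefSeq (GRCm38.p6), and 34741 of the 34945 probe sets matched it by Entrez identifier.

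Differences were fitted with limma 3.58.1 (lmFit, eBayes) in R 4.3.3 over the 3 groups and all 10 arrays, with 7 residual and 5.95 prior degrees of freedom. P values are two-sided and adjusted by Benjamini-Hochberg over 18193 genes. On simulated data with independent normal noise, 100 of 100 genes changed by 1.5 (log2) were called. So were 100 of 100 changed by 3, with 0 false calls. No other gene was changed there, while 11415 passed the adjusted p limit in the real data. The simulation therefore gives no false-call rate for the real data. Single array measures were compared by exact permutation over 35 splits. Python 3.11.15 with numpy 2.4.6 and pandas 2.3.3 made the tables, and matplotlib 3.10.9 the figures.

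The comparison, the 51 gene lists and the naming rule were chosen with earlier results of these data known. Of 1275 list entries, 1183 were measured. The rule named Pou5f1, Sox2, Klf4 and Myc, the cell type markers, the 12 called genes that rose most and the 12 that fell most without overlap of the groups, and members of each list. These were the 3 called members with the largest differences, the largest in the other direction, and the brightest member not called. Genes marked with a dagger lie outside it. Alternatives varied the probe set, the filter on dim genes, the normalization, the arrays in the fit, the variance model and the threshold, and left out each array in turn. Replicate numbers were not used to pair the samples in the main fit.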

Additional observations from a re-analysis of the deposited data

Results flagged for a closer look

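In the 4 brain NSC arrays, 1 array stood apart from the other 3 for 16 of the 252 genes and array measures examined, by Dixon's criterion for 4 samples, the gap to the nearest array over the whole range, which chance passes in about 1 of 20 groups. Replicate 4 was the array that stood apart for 13 of these. It was high for Spon1 (12.32, others 11.67 to 11.73), Lhx2 (7.76, others 6.97 to 7.07), Sema6d (11.36, others 11.02 to 11.05), Calr (13.36, others 12.40 to 12.53), Sufu (8.77, others 8.22 to 8.30), Etv5 (12.24, others 11.32 to 11.36) and Rxrb (9.44, others 8.77 to 8.82). It was low for Itgb8 (11.25, others 11.57 to 11.62), Kdm2b (11.07, others 11.70 to 11.73), Tdrkh (9.66, others 10.17 to 10.26), Birc5 (10.91, others 11.28 to 11.34), Fzd3 (11.04, others 11.23 to 11.24) and Eef1a1 (14.61, others 14.72 to 14.74).

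Replicate 2 was low for Slc1a3 (11.63, others 11.88 to 11.92) and high for Pgk1 (13.73, others 13.59 to 13.61), and replicate 1 was low for Plxnb1 (8.06, others 8.22 to 8.24). The derived-NSC group of 3 arrays is too small for this criterion. Without brain NSC replicate 4, 2125 genes rose and 2533 fell, against 2064 and 2554 with it, and 4455 of the 4618 calls kept their direction.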

How the results depend on the processing

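The count of called genes, 4618, lay between 3794 (genes with a mean of at least 6 only) and 4702 over 21 alternatives. Averaging the probe sets of a gene gave 1825 genes higher and 2063 lower. Leaving out suffixed probe sets (_a_at, _s_at or _x_at) gave 1783 and 2336. Quantile normalization gave 2286 and 2362, so that 49.2% of called genes were higher in place of 44.7%. Leaving out single arrays gave 2026 to 2135 genes higher, 2526 to 2594 lower and 4575 to 4702 together. Of the 180 called genes that the naming rule gave, 167 were called in the same direction under all 21 alternatives in which they were tested, and 13 were not called in at least 1. Some alternatives leave every group difference unchanged and could hardly alter a call. Among them, leaving out an array titled iPS, fitting only the 7 arrays and the trend and robust variance model each gave the same 4618 calls. An adjusted p limit of 0.01 gave 4617. Without suffixed probe sets, Ccng1 was 1.61 and Mgst1 0.15, against -0.29 and -5.95. The median changed sign under some alternative in 15 of the 51 lists, each with a median no further than 0.29 from 0. Without dim genes the BMP median went from 0.18 to -1.47, the hindbrain and spinal cord median from 0.22 to -1.01 and the Hedgehog median from 0.03 to -0.50. Other turned medians ended at most 0.19 from 0. With the replicate number as a block, 2125 genes were higher and 2533 lower, 4658 together. In that fit brain NSC replicate 4, alone in its block, carries no weight, and the counts equal those without it. Deviations from the group means correlated at -0.21, 0.03 and -0.15 between arrays of the same number, and from -0.37 to 0.32 between arrays of different numbers. These values show no pairing by number, and with 3 and 4 arrays they cannot exclude one. With 3 and 4 arrays and RMA values, background correction was not varied, and differences that end near the lower limit of the scale are compressed.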

Other observations

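Among genes in none of the 51 lists, a selection of the largest rises and falls is given here, named after their values were seen. Chchd10, a mitochondrial protein gene, stood 7.62 ± 0.10 higher (limma, adjusted p = 1.44e-15). Morc1, a germ cell ATPase that acts on transposons, stood 7.48 ± 0.10 higher, and the meiotic gene Syce2, of the synaptonemal complex, 6.17 ± 0.14. The tripartite motif genes Trim25 and Trim6 rose by 7.32 and 7.21, and the small heat shock gene Hspb1 by 7.13. Pycard, the inflammasome adaptor, rose by 6.25, and the folate receptor gene Folr1 by 6.17. Numbered zinc finger genes were also among the largest rises, with Zfp982 at 7.33 and Zfp936 at 6.53. Mtm1 rose by 7.15 on its brightest probe set, while its 3 probe sets ranged from -2.03 to 7.90.

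Among the falls, Ednrb, the endothelin receptor of glial and neural crest cells, fell by 6.87 ± 0.13, and the tetraspanin Tspan12 by 6.94 ± 0.13. Dner, a Notch-binding neuronal receptor, fell by 6.47, while the forebrain factor Nr2f1 fell by 6.43 and Pou3f3 fell by 6.13. Cav2, which encodes caveolin 2, fell by 7.17, the peptide transporter gene Slc15a2 by 6.32, and the creatine synthesis gene Gatm by 6.28. Kitl, the ligand of Kit, fell by 6.04 ± 0.12, while Kit itself rose by 2.46 ± 0.11. For each gene named in these paragraphs the 3 derived-NSC arrays and the 4 brain NSC arrays did not overlap, as for 61.3% of all genes.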
